A study of Mus musculus with 4 samples.

Results

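WT1 binding was examined at 8 genes of the actin cytoskeleton of podocyte foot processes: Synpo, Actn4, Actn1, Inf2, Myh9, Arhgap24, Wasl and Nck2. The genes were listed by function, but with earlier results of these data known. Shares set beside those of other genes are therefore descriptive only. Every WT1 peak with its midpoint in the gene or within 50 kb of it was collected. They are 8 of 21887 protein-coding genes, and 42 of the 17234 regions found in both WT1 replicates lay at them. The data are chromatin immunoprecipitation with sequencing (ChIP-seq) of kidneys microdissected from wildtype mouse embryos at E18.5, whose strain is given as C57Bl6 crossed with B6DBA/F1, a mixed background. The WT1 group has 2 samples, precipitated with the antibody WT1 (C-19). The IgG group has 2 samples precipitated with control IgG, which were not analysed here. All samples share genotype, stage and tissue. Whole kidneys hold many cell types, so a peak does not show in which cells WT1 was bound.

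Podocytes wrap the glomerular capillaries with interdigitating foot processes, which are joined by slit diaphragms and held in shape by a contractile actin cytoskeleton. Actin filaments there are crosslinked by alpha-actinins, organised by synaptopodin, built by formins and by the Arp2/3 complex, tied to the slit diaphragm protein nephrin through Nck adaptors, and pulled on by non-muscle myosin. Inherited mutations of ACTN4, INF2 and MYH9 cause glomerular disease in people. WT1 is a zinc-finger transcription factor that podocytes express strongly and keep after birth, and nephron progenitors express it too.

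Each replicate has a deposited peak list with 1 value per peak, cut at 0.05 by the authors. It is read as a p-value or a q-value, with no record of which, and is called the peak value below. Replicate 1 held 53132 peaks and replicate 2 held 57641. The authors' table of regions found in both carries an irreproducible discovery rate (IDR), an error rate that is low where both replicates rank a region highly. Regions with an IDR of 0.05 or lower, 4411 in all, are called reproducible. The files hold no read counts, so depth is unknown, and a smaller value means a more significant peak and not a measured amount of WT1. Positions are on mm10, and distances run from the midpoint of a region. Exons, introns and untranslated regions were not annotated.

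Of the 8 genes, 7 had at least 1 reproducible region in the gene or within 50 kb, and Arhgap24 was the exception. Among all protein-coding genes the share was 26.1%. The 8 genes were chosen with earlier results of these data known, so this difference and those below were not tested. All 8 genes had an overlap region of any IDR in that span, against 57.0% of protein-coding genes. Within 10 kb of the gene or inside it, 7 of the 8 had a reproducible region, against 13.6% of protein-coding genes. Inside the gene itself there was one at 5 of the 8 (Synpo, Actn4, Myh9, Wasl and Nck2), against 7.95%. The median number of reproducible regions in the 50 kb span was 2 for the actin genes and 0 for all protein-coding genes.

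**Figure D1:**
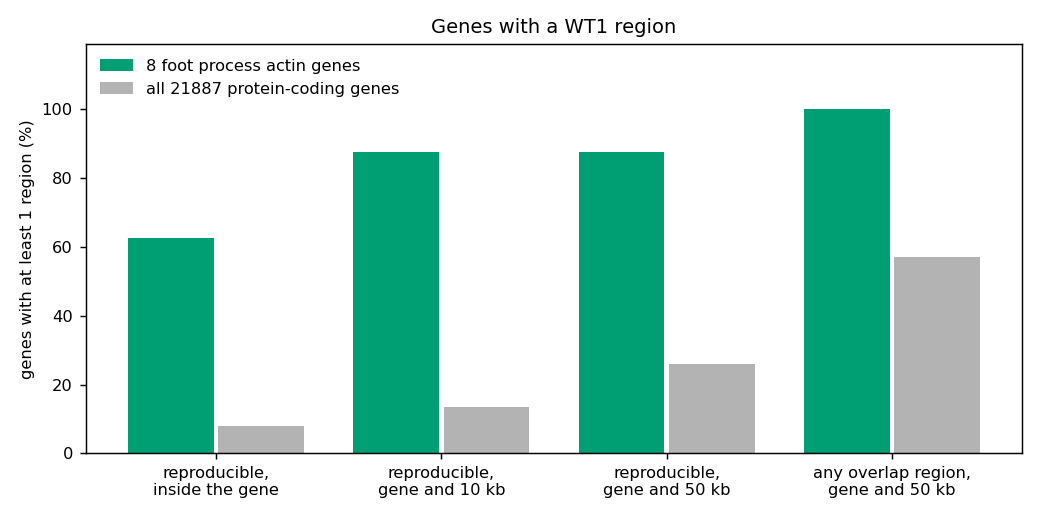
Share of genes with at least 1 WT1 region (percent, vertical axis) for the 8 actin genes (green) and all 21887 protein-coding genes (grey), for 4 definitions of a region at a gene. The actin genes stand at 62.5%, 87.5%, 87.5% and 100%, and all genes at 7.95%, 13.6%, 26.1% and 57.0%. The actin genes were chosen with earlier results of these data known, and the differences were not tested.

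The actin genes are long, with a median of 75.3 kb against 17.2 kb for all protein-coding genes, and a long gene has more room for a peak. Among the 8636 protein-coding genes of 25 kb or longer, which include all 8, 32.3% had a reproducible region in the 50 kb span and 15.7% had one inside the gene. Per 100 kb of gene and flanks, the actin genes held 0.796 reproducible regions and all protein-coding genes 0.265. The density differed widely among the members, with 3.94 per 100 kb at Inf2 and 0 at Arhgap24. Synpo, Actn1, Myh9 and Nck2 had between 0.889 and 1.56, and Actn4 and Wasl had 0.591 and 0.661.

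In all, 16 of the 42 overlap regions at these genes were reproducible (38.1%), against 25.6% of all overlap regions. Of the 16, 6 lay inside the gene and 10 outside it, and of these 10, 5 were at Inf2 and 3 at Actn1. Of the 26 weaker regions 20 lay inside and 6 outside. Of these 20, 5 were in Arhgap24, the longest gene. The same split over all regions was not counted. The widths of the 16 ran from 153 to 838 bp. The weakest of the 16 was at Myh9 (IDR 0.0288), and the strongest region that missed the threshold was at Nck2 (IDR 0.0715). At all 16 the peak value was smaller in replicate 2 than in replicate 1, as it was at 90.3% of all reproducible regions.

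**Figure D2:**
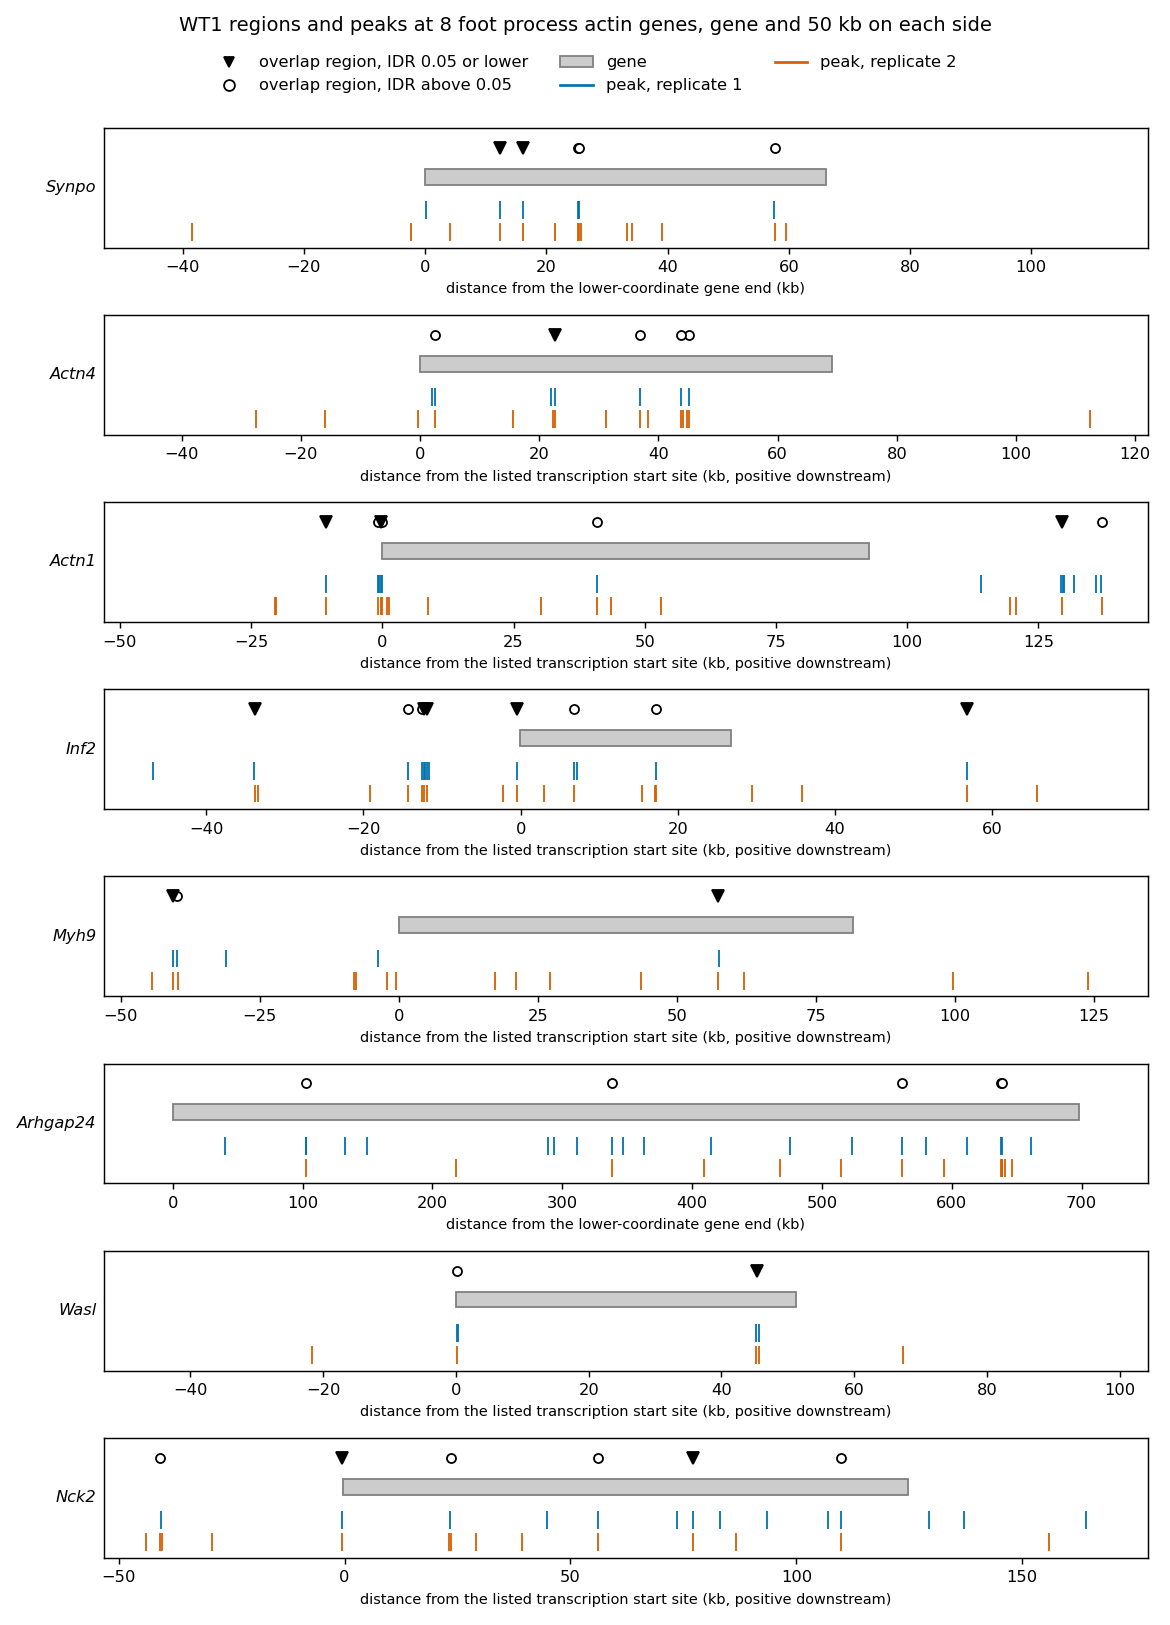
Map of the 8 genes (grey bars) with 50 kb on each side, each on its own distance axis in kb. Black triangles are the 16 reproducible regions, open circles the 26 regions with an IDR above 0.05, and blue and orange ticks the peaks of replicates 1 and 2. Triangles stand within 1 kb upstream of the start site at Actn1, Inf2 and Nck2, inside the gene at Synpo, Actn4, Myh9, Wasl and Nck2, and nowhere at Arhgap24.

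A start site is listed for 6 of the 8 genes in the RefSeq promoter table used here, all but Synpo and Arhgap24. At 3 of the 6 (Actn1, Inf2 and Nck2) a reproducible region lay within 1 kb of it, against 4.05% of the 17492 protein-coding genes with a listed start site. All 3 regions lay upstream. Actn4, Myh9 and Wasl had none there. Promoter windows of 250 bases before to 50 bases after the start site are printed below for the genes whose windows a WT1 peak entered, Actn1, Actn4 and Inf2. Capitals mark each match to GTGGGNG, a short form of the G-rich element that WT1 zinc fingers bind, on either strand. Of the protein-coding promoter windows 33.3% hold this motif, and 5 of the 6 actin gene windows do, all but that of Nck2. The EGR-like element GCGGGGGCG, on either strand, was in 3.85% of protein-coding windows and in 3 of the 6 (Actn1, Inf2 and Wasl). It overlaps no printed capital. The longer WT1 element known as WTE was in 0.326% of windows and in none of the 6.

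Actn1 encodes alpha-actinin-1, a broadly expressed actin crosslinker. The gene spans chromosome 12, 80167542 to 80260420, is read from the minus strand, and had 3 reproducible regions, all outside it. As many or more were found at 2.90% of protein-coding genes. The region at the promoter lay at 80260481 to 80260883, 319 bp upstream of the start site, with an IDR of 3.88e-05. Its peak value was 4.99e-17 in replicate 1 and 5.73e-21 in replicate 2, which ranked 622 and 1187 in their lists. It was flanked by 2 weaker overlap regions. One covered the start site itself (80260275 to 80260424, IDR 0.235) after a gap of 56 bp. The other began 36 bp beyond it on the upstream side (80260920 to 80261357, IDR 0.0787).

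The RefSeq window of the Actn1 promoter is chr12:80260314-80260613 (GRCm38.p6, minus strand), given 5′ to 3′. The reproducible region covered its first 133 bases, from position -250 to -118 counted from the start site. The single GTGGGNG match, at -211, lay in this part, and the EGR-like element, at -47, lay in the part covered by the weaker region over the start site.
Actn1: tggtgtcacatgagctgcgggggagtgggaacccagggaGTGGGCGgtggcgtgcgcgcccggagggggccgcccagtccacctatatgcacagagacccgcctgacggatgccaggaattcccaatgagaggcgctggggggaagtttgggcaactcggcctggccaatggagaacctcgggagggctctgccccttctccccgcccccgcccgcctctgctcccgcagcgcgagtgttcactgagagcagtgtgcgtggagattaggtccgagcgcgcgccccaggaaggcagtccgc

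The other reproducible regions of Actn1 were farther away. One lay 10.7 kb upstream of the start site (80270771 to 80271418, IDR 4.9e-06), inside the long non-coding RNA gene Gm29952. Its peak values were 3.56e-14 and 8.61e-35 in replicates 1 and 2. By IDR it was the strongest of the 3, but in replicate 1 the promoter region had the smaller value (4.99e-17). The other lay 36.7 kb beyond the downstream end of the gene (80130401 to 80131209, IDR 0.00511), inside the long non-coding RNA gene 2310015A10Rik and nearer to the protein-coding gene Gm52006, at 13.4 kb. There replicate 2 had 1 peak 809 bp wide (6.95e-26), where replicate 1 had 3 narrower ones, the most significant at 1.21e-04.

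Actn4 encodes alpha-actinin-4, the main alpha-actinin of podocyte foot processes, and lies on the minus strand of chromosome 7, 28893248 to 28962351. It had 5 overlap regions, all inside the gene, and 1 of them was reproducible (28939432 to 28939959, IDR 7.02e-04). That region lay 22.6 kb downstream of the start site, with peak values of 3.42e-08 in replicate 1 and 1.62e-11 in replicate 2. The other 4 had IDRs between 0.0955 and 0.551, among them one 2.58 kb downstream of the start site (28959689 to 28959818, IDR 0.247).

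At the Actn4 promoter a peak was found in replicate 2 alone (28962493 to 28962834, value 8.11e-06, rank 6135), 331 bp upstream of the start site, and replicate 1 had none within 1 kb. It covered 90 bases of the RefSeq window chr7:28962283-28962582 (GRCm38.p6, minus strand). Both GTGGGNG matches of the window, at -146 and -101 and both on the reverse strand, lay outside the covered part.
Actn4: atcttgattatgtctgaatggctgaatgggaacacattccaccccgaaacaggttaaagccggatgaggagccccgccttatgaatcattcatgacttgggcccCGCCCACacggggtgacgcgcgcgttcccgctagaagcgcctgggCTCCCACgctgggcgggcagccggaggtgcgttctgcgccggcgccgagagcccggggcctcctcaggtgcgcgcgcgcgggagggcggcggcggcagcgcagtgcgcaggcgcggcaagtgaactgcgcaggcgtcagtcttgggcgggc

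Wasl encodes N-WASP, which switches on the Arp2/3 complex to branch actin filaments. The gene lies on the minus strand of chromosome 6, 24613810 to 24664995. Its reproducible region had the lowest IDR of the 16 (24619219 to 24620056, IDR 3.16e-06) and was also the widest, at 838 bp. Each replicate had 2 peaks in it, the wider of 581 bp in replicate 1 and 602 bp in replicate 2. The most significant peak in it had a value of 2.66e-29 in replicate 1 and 1.18e-67 in replicate 2, ranks 232 and 137. It lay inside the gene, 45.4 kb downstream of the start site and 5.83 kb from the downstream end, and no end of another protein-coding gene was within 10 kb. A weaker overlap region lay 226 bp downstream of the start site (24664603 to 24664935, IDR 0.26). There replicate 2 had 1 peak (1.61e-05) and replicate 1 had 2, with values of 0.0118 and 0.0136.

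Nck2 encodes an SH2 and SH3 domain adaptor that binds phosphorylated nephrin and recruits N-WASP. It lies on the plus strand of chromosome 1, 43445483 to 43570518, and had 2 reproducible regions among 6 overlap regions. The stronger lay 638 bp upstream of the start site (43444898 to 43445329, IDR 6.82e-05), with peak values of 1.26e-12 in replicate 1 and 4.11e-21 in replicate 2. The second was the narrowest of the 16, at 153 bp (43522882 to 43523034, IDR 5.75e-04), and lay inside the gene, 77.2 kb downstream of the start site, with values of 5.46e-08 and 7.43e-15 in replicates 1 and 2. Other protein-coding genes were far away: the nearest end was that of Fhl2, at 247 kb from the first region, and of Ecrg4, at 208 kb from the second. Another region inside the gene just missed the threshold (43555642 to 43555849, IDR 0.0715).

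Synpo encodes synaptopodin, a proline-rich protein that binds alpha-actinin and organises the actin of foot processes. The gene spans chromosome 18, 60593981 to 60660173. Both of its reproducible regions lay inside it. The stronger (60609765 to 60610399, IDR 7.2e-06) was 16.1 kb from the lower-coordinate end, with peak values of 3.65e-11 in replicate 1 and 2.46e-40 in replicate 2. The weaker (60606180 to 60606579, IDR 0.00249) was 3185 bp away from it, with values of 6.87e-05 and 1.29e-14 in replicates 1 and 2. In replicate 1 the peak there was 175 bp wide, and in replicate 2 it was 400 bp. The remaining 3 overlap regions were also inside the gene, at IDRs of 0.265, 0.344 and 0.414. Replicate 2 had a further 2 peaks with a value of 0.001 or lower and no overlap region, both inside the gene (3.02e-04 and 3.4e-04).

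Myh9 encodes the heavy chain of non-muscle myosin IIA, the motor that pulls on actin filaments. It lies on the minus strand of chromosome 15, 77760585 to 77842175. The stronger of its 2 reproducible regions lay 40.5 kb upstream of the start site (77882483 to 77882939, IDR 1.29e-05), with peak values of 7.4e-12 in replicate 1 and 4.25e-28 in replicate 2. An end of Txn2, which encodes mitochondrial thioredoxin, was nearer to it, at 32.3 kb. The second lay inside the gene, 57.5 kb downstream of the start site (77784401 to 77785046, IDR 0.0288), with values of 1.61e-04 and 1.58e-05 in replicates 1 and 2. It was the only region of the gene lost at an IDR of 0.01, and the strongest peaks of replicate 2 alone also left 1 at Myh9. At the start site itself replicate 2 had a peak 419 bp upstream (value 0.00351, rank 16373) and replicate 1 had none within 1 kb.

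Inf2 encodes a formin that both assembles and severs actin filaments. It is the shortest of the 8 genes (26.8 kb, plus strand of chromosome 12, 112588744 to 112615557) and had the most reproducible regions in the 50 kb span, 5 among 9 overlap regions. As many or more were found at 0.397% of protein-coding genes, with neighbouring regions counted apart. When regions within 100 bp were joined, the 5 became 4. All 5 lay outside the gene, and with a window of 10 kb 1 was left, against 2 each at Synpo and Nck2. At the promoter the region 112588138 to 112588542 (IDR 0.00205) was centred 427 bp upstream of the nearer of 2 listed start sites, with peak values of 2.8e-05 in replicate 1 and 7.75e-17 in replicate 2. Of the RefSeq window chr12:112588517-112588816 (GRCm38.p6, plus strand) it covered the first 26 bases, and these came from the peak of replicate 2 alone. The GTGGGNG match, at -50 on the reverse strand, and the EGR-like element, at -129, lay outside the covered part.
Inf2: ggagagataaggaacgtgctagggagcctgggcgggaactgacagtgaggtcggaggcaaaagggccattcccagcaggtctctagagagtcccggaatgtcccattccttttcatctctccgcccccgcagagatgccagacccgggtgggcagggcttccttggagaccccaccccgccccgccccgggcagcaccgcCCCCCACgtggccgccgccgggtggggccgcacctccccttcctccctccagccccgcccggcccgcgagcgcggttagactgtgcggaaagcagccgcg

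Farther upstream of Inf2, 3 overlap regions lay side by side about the same place. The middle one (112576334 to 112576577) had the lowest IDR of the gene, 3.48e-06, and lay 12.3 kb upstream of the start site. Its peak values were 2.31e-18 in replicate 1 and 5.43e-35 in replicate 2. After a gap of 36 bp the next (112576614 to 112577155, IDR 0.00222) was 1 peak of 542 bp in replicate 2 (2.67e-39) and 3 peaks in replicate 1, the most significant at 1.51e-05. The third of the row was weaker (112576189 to 112576300, IDR 0.237). The region farthest upstream lay at 33.8 kb (112554691 to 112555148, IDR 6.68e-04), with values of 4.64e-08 and 4.99e-12 in replicates 1 and 2. For these upstream regions an end of Inf2 was nearer than that of any other protein-coding gene.

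The fifth region of Inf2 was 30.0 kb beyond the downstream end (112645305 to 112645847, IDR 8.39e-06), with peak values of 7.75e-10 and 6.65e-32 in replicates 1 and 2. It lay inside another gene, Siva1, which encodes a pro-apoptotic protein, 0.748 kb from an end of Siva1, and ends of Adssl1 and Akt1 were within 10 kb. Of the 16 reproducible regions at the actin genes this is the only one inside another protein-coding gene, and 3 in all had an end of another protein-coding gene nearer than an end of the named one (at Actn1, Inf2 and Myh9).

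**Figure D3:**
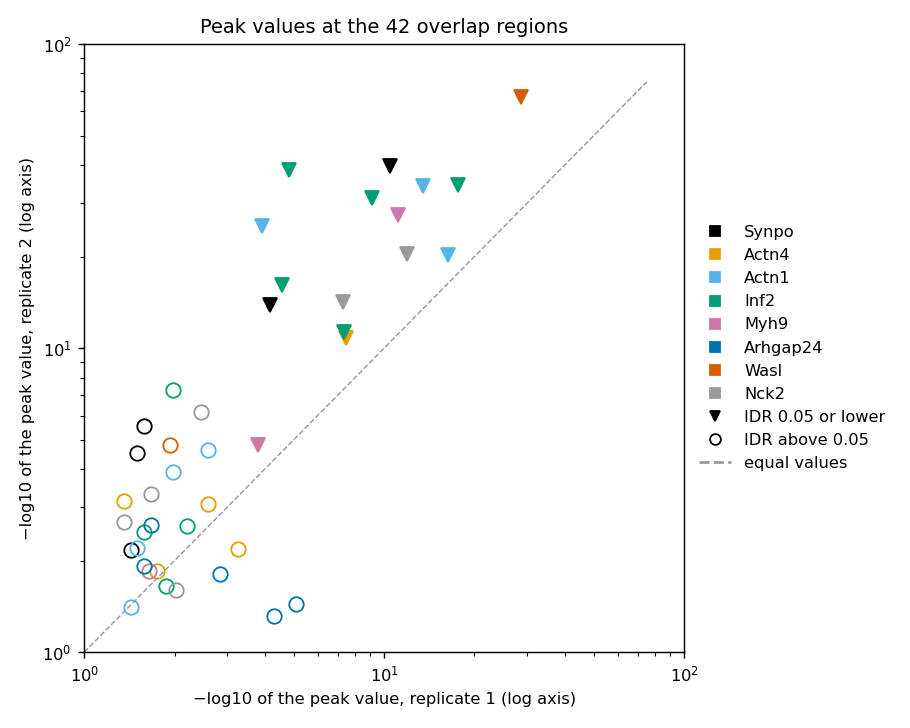
Peak values at the 42 overlap regions, as −log10 of the most significant peak of replicate 1 (horizontal) and of replicate 2 (vertical), both on log axes. Triangles are the 16 reproducible regions and circles the others, coloured by gene. All triangles lie above the dashed line of equal values, with Wasl farthest out at 2.66e-29 and 1.18e-67. Of the circles 7 lie on the other side of the line, 3 of Arhgap24 among them, and 2 of these 3 are the farthest from it.

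Arhgap24 encodes a GTPase-activating protein that acts on Rac1 and is known in podocytes for limiting membrane ruffling. At 698 kb (chromosome 5, 102207198 to 102905035) it is the longest of the 8 genes, and it had no reproducible region. It had 5 overlap regions, all inside the gene and all at an IDR between 0.354 and 0.555. At 2 of them the replicates differed widely. The region 102768442 to 102768607 had a peak value of 8.15e-06 in replicate 1 (rank 2952) and 0.0364 in replicate 2 (rank 50460). The region 102845163 to 102845345 had 4.92e-05 in replicate 1 (rank 3658) and 0.0483 in replicate 2 (rank 57529). Conversely, 2 peaks of replicate 2 inside the gene had values of 1.87e-04 and 8.44e-04 with no overlap region. The most significant peaks of each replicate at this gene were thus at different places.

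The replicates were also compared over all peaks in the span of the 8 genes, not only those found in both. Replicate 1 had 82 peaks there, of which 49 (59.8%, exact 95% interval 48.3 to 70.4) overlapped a peak of replicate 2 by at least 1 bp. Replicate 2 had 111, of which 43 (38.7%, 29.6 to 48.5) overlapped a peak of replicate 1. Over the whole lists these shares were 34.1% and 30.8%. The intervals cover counting error over peaks only, taken as independent, and no test between the lists was made. Neighbouring peaks can lie in 1 overlap region, so the intervals may be too narrow. Wasl had 4 peaks in replicate 1, all shared, and 5 in replicate 2, of which 3 were shared. Myh9 had 5 in replicate 1 and 15 in replicate 2, with 3 shared in each. Arhgap24 was the only one of the 8 with more peaks in replicate 1 (20) than in replicate 2 (13), and Nck2 had 14 in each.

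**Figure D4:**
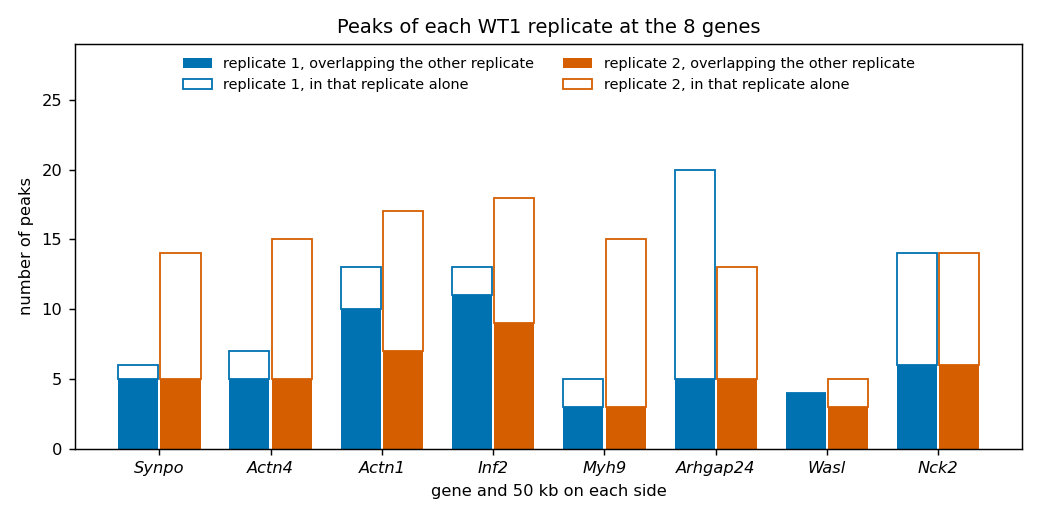
Number of peaks of replicate 1 (blue) and replicate 2 (orange) in each gene and 50 kb on each side. Filled parts are peaks that overlap one of the other replicate, open parts are peaks in that replicate alone. Myh9 shows the largest gap, with 5 and 15 peaks, and Arhgap24 has most of its replicate 1 peaks (15 of 20) in that replicate alone.

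All 21 peaks of replicate 1 with a value of 0.001 or lower overlapped a peak of replicate 2, and 27 of the 35 such peaks of replicate 2 overlapped one of replicate 1 (77.1%). Over the whole lists, 88.0% of the 6075 such peaks of replicate 1 and 74.2% of the 11764 of replicate 2 were shared. The 8 left over in replicate 2 were spread over Synpo (2), Actn4 (2), Arhgap24 (2), Actn1 (1) and Inf2 (1). The most significant was 38.9 kb from Inf2 (112654378 to 112654621, value 7.94e-06), followed by the one at the Actn4 promoter.

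A further 69 genes of actin regulation, among them other alpha-actinins, formins, myosins and focal adhesion genes, were counted beside the 8. Whether podocytes express each of them was not checked. The list includes Actn2, Actn3, Was and Dnm1, so its shares may not be those of podocyte genes alone. No reproducible region lay in the gene or within 50 kb at any of these. The same held for Cd2ap, Nck1, Anln, Arhgdia, Rac1, Cdc42 and Rhoa, among others. Of these 69, 31 (44.9%) had a reproducible region in the gene or within 50 kb and 22 (31.9%) had one in the gene or within 10 kb, set beside 7 of the 8 in both cases and 26.1% and 13.6% of all protein-coding genes. Their median length was 69.2 kb, close to that of the 8, and their median number of reproducible regions was 0. Those with the lowest-IDR regions included the formin-homology genes Daam1 (3 regions in the gene or within 10 kb, lowest IDR 9.97e-07) and Daam2 (5, 1.03e-05), and Srgap1, which encodes a GTPase-activating protein (3, 1.85e-07). The peak value at that Srgap1 region was 1.77e-70 in replicate 1 and is listed as 0 in replicate 2. Fyn, a kinase that phosphorylates nephrin, had 4 (lowest IDR 2.49e-06). Kank1, Myo9a, Myo5b and Capzb, which encodes a subunit of actin capping protein, had 1, 2, 3 and 1, with lowest IDRs between 4.2e-06 and 2.6e-05.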

How the data were processed

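ChIP-seq peaks of 2 WT1 samples were used, the 2 IgG samples not being analysed here. Per the labels' protocols, precipitated DNA was cut with restriction enzymes before library preparation. The genome build is mm10, per the submitters' processing notes. No label or file header used here names the aligner, the peak caller or any use of IgG reads. The deposited peak lists give 1 p-value or q-value per peak (at most 0.0499 in each), and the deposited table of both replicates gives an IDR from 5.19e-08 to 0.555. That these are a p-value or q-value and an IDR is read from the files' names and values. Depth per sample is unknown.

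Gene positions and promoter windows came from RefSeq tables of GRCm38.p6, the assembly behind mm10, with no genome sequence. A region belongs to a gene if its midpoint lies in it or within 50 kb. All 8 genes matched by symbol, as did all 69 further actin genes. The 8 genes and the lists were chosen with earlier results of these data known, so no test of the list was made: counts stand beside those of all protein-coding genes. All 8 genes are described. Of the 69, the 8 with the lowest-IDR region in the gene or within 10 kb are named. Nothing says whether the WT1 samples came from separate animals. Counting functions were tested on simulated data. Alternatives were other IDR thresholds and windows, overlap rules, and each replicate alone. Python 3.11.15, pandas 2.3.3 and scipy 1.17.1 were used. Some shares have exact Clopper-Pearson 95% intervals.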

Additional observations from a re-analysis of the deposited data

How the results depend on the processing

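With 1 choice changed at a time, 21 of 27 alternative values stayed within 1.5 times the main count or within the interval of the main share. The count of 7 genes with a reproducible region became 5 inside the genes only, which is within 1.5 times the main count. From the peaks of 1 replicate alone, as many per list as there are reproducible regions, it ran from 7 to 8. Arhgap24 was added from replicate 1, with 2 peaks. From replicate 1 alone Wasl went to 2 instead of 1, but both are peaks within its 1 reproducible region. From replicate 2 alone Myh9 went to 1 instead of 2. The 16 reproducible regions ran from 16 to 20 in the same way, with single peaks counted and not regions. They became 9 with a window of 10 kb and 6 inside the genes only, where 26 of the 42 overlap regions remained, since fewer positions are then counted. With 10 kb Actn1 and Inf2 had 1 each, instead of 3 and 5, and inside the gene none. The share of replicate 1 peaks that overlapped replicate 2 became 41.5% when at least 50% of each peak had to overlap and 100% for peaks with a value of 0.001 or lower. The share of replicate 2 peaks became 77.1% for such peaks. Chosen after seeing the data, joining regions within 100 bp gave 15, and leaving out regions outside the gene and nearer to an end of another gene gave 13, with 7 genes each time. No paired analysis was possible because values of 1 group only, the WT1 samples, were at hand, so no groups were compared. Without read counts the depth behind each peak is unknown.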

Other observations

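Part of the peak edges lay at AluI and MseI sites. Per the labels' protocols DNA was cut with AluI or HaeIII together with MseI before library preparation. In the RefSeq promoter windows, 24.8% of peak starts of replicate 1 (274 of 1107, exact 95% interval 22.2 to 27.4) and 17.0% of those of replicate 2 (318 of 1876, 15.3 to 18.7) lay exactly where AluI cuts, against 0.525% of all positions in the windows. For MseI the shares were 6.14% and 5.54%, against 0.324%. For HaeIII they were 0.723% and 0.853%, against 0.61%. Peak ends gave 21.9% and 15.7% for AluI, 6.21% and 6.18% for MseI, and 0.274% and 1.53% for HaeIII. In the windows of the 6 actin genes that have one, 6 peak edges could be checked, at Actn1, Actn4 and Inf2, and 0 lay on a cut. Of the 37 overlap regions at these genes with 1 peak of each replicate, 19 (51.4%) had the identical start base in both and 14 (37.8%) the identical end base, against 40.2% and 39.9% of all 16021 such overlap regions. Of the reproducible ones these were 5 and 2 of 13, against 33.5% and 34.2% of all 3672. Positions of peak edges, and so the gaps between neighbouring regions at Actn1 and Inf2, were not tested against cutting sites outside the promoter windows.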
